A study of Mus musculus with 6 samples.

Results

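Complement is a set of blood and tissue proteins that mark and puncture cells and recruit phagocytes. Transcripts of 6 of its genes, C4b, C3, C7, Cfd, Cfp and Serping1, were followed in tibialis anterior muscle, the muscle in front of the shin that lifts the foot, at 3 and 18 months of age. The genes were taken by symbol, and all 6 were found among the 11239 genes of the deposited tables. They cover the main steps of the cascade: C4b acts at the start, C3 at the centre, Cfd and Cfp in the alternative pathway, C7 in the terminal pathway, and Serping1 restrains the start.

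Complement can be set off by antibody and C1 (the classical route), by sugar-binding proteins and MASP proteases (the lectin route), or by slow spontaneous activation of C3 (the alternative route). All routes meet at the cleavage of C3, which coats targets, and can end in the membrane attack complex, a pore built from C5b to C9. The liver makes most of the circulating proteins, but fibroblast-like cells, macrophages and fat cells within tissues also transcribe complement genes.

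The samples were total RNA of TA muscle of C57BL/6 mice, 3 samples of young mice (3 months) and 3 of aged mice (18 months). The labels name no treatment, mutation or transgene in either group and do not give the sex, and nothing in them says whether the samples of a group are separate animals. A p-value here weighs the difference between ages only against the spread of these samples within a group, which may be technical. Ddx3y, a gene of the Y chromosome, stood between 22.6 and 32.1 FPKM in all 6 libraries.

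Values are FPKM, fragments scaled to transcript length and to the library's total. Where 3 values are listed for an age, they follow the order of replicates 1, 2 and 3. Library totals were between 71984420 and 102135094 fragments, and the 6 genes had between 311 and 16293 fragments each in every library. Muscle markers were abundant throughout, with Ckm, the muscle creatine kinase gene, between 5349 and 5852 FPKM. The libraries were not alike in other cells. Macrophage and connective tissue (fibro-adipogenic) markers were highest in young replicate 1, and neutrophil markers in aged replicate 3. The values are given beside the results they move with.

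Of the 6 genes, C4b and C7 rose with age, Cfd and Cfp fell, and C3 and Serping1 did not pass (limma on log2(FPKM + 1), Benjamini-Hochberg adjusted p under 0.05). This is 2 genes higher and 2 lower. Of all 7690 genes tested, 27.3% were called higher and 24.5% lower, 51.8% in all, so the counts among the 6 genes were near the background. The 3 aged libraries lay above the 3 young ones for 2 of the 6 genes and below them for 2, against 33.8% and 29.0% of all genes tested.

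Single libraries moved these counts. Without young replicate 2, 0 of the 6 genes passed as higher (20.2% of all genes tested did; C4b and C7 had limma adjusted p of 0.0518 and 0.0859). Without aged replicate 1 or 3 C4b alone passed as higher, against 23.6% and 22.8%. Without young replicate 1 C4b and C3 passed as higher, against 22.2%. Without aged replicate 2 or 3 Cfd alone passed as lower, against 22.9% and 20.9%, and without aged replicate 1 Serping1 joined Cfd and Cfp, against 23.8%. Serping1 also joined them with median-of-ratios scaling and with voom, where 26.8% and 26.7% of genes were called lower. Without the minimum of 1 FPKM 1 gene passed in each direction, C4b and Cfd, against 21.2% and 19.5%, and with robust estimation 1 passed as lower, against 24.3%. Adjusted over all annotated genes none of the 6 passed (12.8% and 11.8% of all genes tested did), while 5 of the 6, all but C3, had an unadjusted p under 0.05 in limma, as did 58.9% of all genes tested. In whole muscle, fewer cells of a type and less RNA per cell cannot be told apart.

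**Figure D1:**
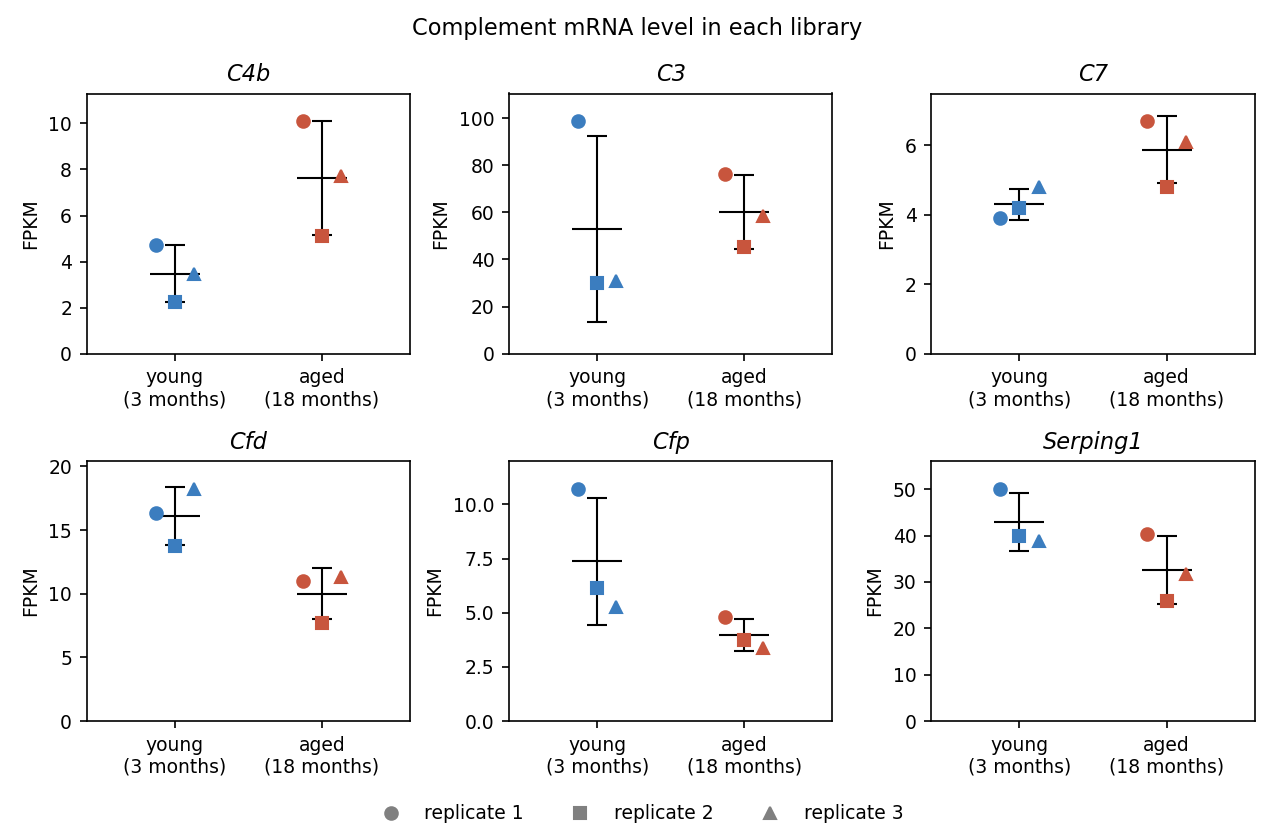
FPKM of each of the 6 complement genes in each library; blue is young, red is aged, marker shapes give the replicate, and the black bar and whiskers are the mean and SD of 3 libraries. The aged libraries lie above the young ones for C4b and C7 and below them for Cfd and Cfp, while young replicate 1, at 98.6 FPKM, is the highest library for C3.

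The stretches of 150 bases before the annotated starts are shown for C3, C7, Cfd and Cfp. RefSeq starts were matched for these 4 of the 6 genes, and not for Serping1 or for C4b, which rose. The stretches are from RefSeq on GRCm38.p6, read 5′ to 3′ along the gene, with matches to the motifs searched in capitals.
C3 (chr17:57228137-57228286, minus strand): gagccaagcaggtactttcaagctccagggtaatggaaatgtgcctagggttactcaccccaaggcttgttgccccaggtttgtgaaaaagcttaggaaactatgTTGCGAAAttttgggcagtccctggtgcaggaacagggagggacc
C7 (chr15:5063774-5063923, minus strand): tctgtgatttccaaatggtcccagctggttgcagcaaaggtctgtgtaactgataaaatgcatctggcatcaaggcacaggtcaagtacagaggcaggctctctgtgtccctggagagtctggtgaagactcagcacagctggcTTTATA
Cfd (chr10:79890703-79890852, plus strand): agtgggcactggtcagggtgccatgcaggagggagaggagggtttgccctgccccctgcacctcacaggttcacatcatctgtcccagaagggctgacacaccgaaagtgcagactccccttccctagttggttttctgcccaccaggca
Cfp (chrX:20931556-20931705, minus strand): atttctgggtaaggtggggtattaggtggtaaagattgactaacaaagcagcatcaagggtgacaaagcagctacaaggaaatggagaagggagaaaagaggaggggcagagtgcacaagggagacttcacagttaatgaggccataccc
The 250 bases before each start were searched on both strands for TATAAA (the TATA box), TTGCNNAA (a C/EBP-like motif), TTCNNNGAA (a STAT-like motif) and for the interferon-stimulated response motif. C3 held the C/EBP-like letters, which begin 45 bases before the start. C7 held the TATA box on the other strand, beginning 6 bases before the start, and the STAT-like letters TTCCCAGAA beginning 164 bases before it, outside the stretch shown. In Cfd and Cfp none of the 4 motifs was matched in this window. Of 32851 mouse promoters of the same length, 12.4% held the TATA box, 9.56% the C/EBP-like motif, 7.02% the STAT-like motif and 2.98% the interferon-stimulated response motif. A match describes letters only.

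C4b encodes complement component C4, which proteases of the classical and lectin routes cleave. C4 then joins C2 to form the enzyme that cuts C3. The gene (ENSMUSG00000073418) lies on chromosome 17, 34728380 to 34743882, minus strand (GRCm38). The young libraries held 4.71, 2.26 and 3.47 FPKM of its transcript, and the aged libraries 10.1, 5.12 and 7.72. Every aged library was above every young one, although aged replicate 2 and young replicate 1 lay close together. The mean rose 2.20-fold, from 3.48 ± 1.23 to 7.64 ± 2.48 FPKM (SD, n = 3 each), a log2 change of 0.94 ± 0.25 (SE, limma adjusted p = 0.0158). The call was lost without young replicate 2, the lowest library (log2 change 0.73, limma adjusted p = 0.0518), and when adjusted over all annotated genes (limma adjusted p = 0.114). With the replicate numbers as a block, the limma adjusted p was 0.000208, and over the 17 alternatives it lay between 0.000208 and 0.114. C4b has a close relative next to it, C4a, and 35.2% of the 50-base windows of its longest transcript also occur in C4a, so fragments of the pair may not be separable. C4a was on the wider complement list but was not found by symbol among the deposited genes, so it has no value of its own here. No such window of C3, C7, Cfd, Cfp or Serping1 was found in the transcripts of another gene.

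C3, the protein at which all routes meet, had the widest spread of the 6 genes among young libraries. The gene (ENSMUSG00000024164; chromosome 17, 57203970 to 57228136, minus strand) gave 98.6, 29.9 and 30.7 FPKM in the young libraries, while the aged libraries gave 76.5, 45.1 and 58.6. The groups overlapped through young replicate 1 alone, which was 3.30 times young replicate 2 and above every aged library. The group means were 53.1 ± 39.5 and 60.1 ± 15.7 FPKM (SD, n = 3 each). The log2 change was 0.38 ± 0.43 (SE), with a 95% interval of −0.62 to 1.37, and did not pass (limma adjusted p = 0.486). Without young replicate 1 it was 0.93 ± 0.19 (SE) and passed (limma adjusted p = 0.0111), so that this library decides the call. Over the 17 alternatives the adjusted p lay between 0.0111 and 1.00, and this was the only one of them in which C3 passed.

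Young replicate 1 also stood apart in macrophage genes. The summed level of 9 listed macrophage markers was 126 FPKM there and 70.8 and 75.0 in young replicates 2 and 3. Lyz2, a lysozyme gene of myeloid cells, was at 70.8 FPKM in that library and at 26.6 and 33.8 in the other young ones. Itgax, the alpha chain of complement receptor 4, gave 1.44, 0.190 and 0.490 FPKM in the young libraries. Itgam, the alpha chain of complement receptor 3, gave 0.931, 0.210 and 0.348. Markers of fibro-adipogenic progenitors, which are connective tissue cells, were also highest in young replicate 1. The 12 listed summed to 1301 FPKM there and to 1002 and 965 in young replicates 2 and 3. Most of each sum was Gsn, the gelsolin gene. The part of either cell type in the C3 values was not tested.

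Cfd encodes factor D, the serine protease that cuts factor B once it is bound to C3, and is also known as adipsin because fat cells make it. The gene (ENSMUSG00000061780; chromosome 10, 79890853 to 79892656, plus strand) gave 16.3, 13.7 and 18.2 FPKM in the young libraries and 11.03, 7.68 and 11.3 in the aged ones. All aged libraries were below all young ones. The mean fell from 16.1 ± 2.26 to 10.01 ± 2.03 FPKM (SD, n = 3 each), 1.61-fold lower, with a log2 change of −0.64 ± 0.15 (SE, limma adjusted p = 0.00987). Cfd was the only one of the 4 called genes whose call held in each fit with 1 library left out, with changes between −0.75 and −0.48. Of its 17 alternatives, adjustment over all annotated genes alone ended the call (limma adjusted p = 0.0712), and the lowest adjusted p was 0.000896.

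Among the other fat cell genes called, most rose, opposite to Cfd, and 1 fell. Adipoq, the adiponectin gene, gave 2.18, 2.35 and 2.57 FPKM in the young libraries and 3.72, 2.71 and 3.34 in the aged ones (limma adjusted p = 0.0283, lost in 4 of the 6 fits with 1 library left out, 0.0757 to 0.0889). Plin1, a coat protein gene of lipid droplets, rose from 1.27 ± 0.291 to 2.67 ± 0.704 FPKM (SD, n = 3 each, limma adjusted p = 0.00957). Plin4, another lipid droplet coat protein gene, fell from 112 ± 6.70 to 61.1 ± 8.11 FPKM (SD, n = 3 each, limma adjusted p = 0.000456). Of the 10 adipocyte markers listed, 8 were tested, of which 4 rose, 1 fell and 3 did not pass. Of all genes tested, 27.3% rose and 24.5% fell. None of the 10 markers was at 0 in any library. Their summed level was 1042 to 1145 FPKM in young and 2068 to 2519 in aged libraries, most of it from Car3, which muscle fibres also express. Without Car3 the order turned: the other 9 markers summed to 173 to 184 FPKM in young and 131 to 152 in aged libraries, without overlap. Plin4, the 1 marker called lower, was the largest of these in young muscle. It gave 105 to 118 FPKM in young and 54.5 to 70.2 in aged libraries. Fabp4, another of the 9, rose from 51.1 ± 3.88 to 61.7 ± 3.23 FPKM (SD, n = 3 each, limma adjusted p = 0.0167). The sum without Car3 thus does not describe the markers that rose. Without young replicate 2, 2 of the 8 adipocyte markers tested rose in place of 4, against 20.2% of all genes tested. Of 12 markers of fibro-adipogenic progenitors, the connective tissue cells that surround muscle fibres, 10 fell and 0 rose (24.5% and 27.3% of all genes tested). Without young replicate 1, 7 of the 12 fell (18.4%), and 8 fell without aged replicate 2 or 3 (22.9% and 20.9%). Under the replicate block 11 fell (26.0%), and adjusted over all annotated genes 5 fell (11.8%). The summed level of the 12 markers was 965 to 1301 FPKM in young and 560 to 815 in aged libraries. Most of it came from Gsn alone, at 578.2 to 818.5 FPKM in young and 318.9 to 488.8 in aged libraries. The part of either cell type in the fall of Cfd was not tested.

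Cfp encodes properdin, which stabilises the enzyme that cuts C3 in the alternative pathway and is made by macrophages, neutrophils and other white cells. The gene (ENSMUSG00000001128; chromosome X, 20925454 to 20931555, minus strand) gave 10.7, 6.16 and 5.27 FPKM in the young libraries, and the aged libraries gave 4.81, 3.75 and 3.39. The groups did not overlap, with aged replicate 1 just below young replicate 3, and young replicate 1 was again far above the other young libraries. The mean fell from 7.38 ± 2.93 to 3.98 ± 0.734 FPKM (SD, n = 3 each), 1.85-fold lower, with a log2 change of −0.71 ± 0.22 (SE, limma adjusted p = 0.0299). Without young replicate 1 the change was −0.44 (limma adjusted p = 0.0393). Cfp no longer passed when aged replicate 2 (0.0760) or 3 (0.0934) was left out, with no minimum FPKM (0.0579), with robust estimation (0.0513) and when adjusted over all annotated genes (0.216), all limma adjusted p. The lowest over its alternatives was 0.00274, with the replicate numbers as a block.

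Most macrophage markers fell with age, as did Cfp and most fibro-adipogenic and endothelial (vessel lining) markers. Of 8 macrophage markers tested, 6 fell and 0 rose, where 24.5% of all genes tested fell. Without young replicate 1, 3 of 7 tested fell (18.4% of all genes), and 3 of 8 fell without aged replicate 2 or 3 (22.9% and 20.9%), while all 8 fell under the replicate block (26.0%). The summed level of the 9 listed was 70.8 to 126 FPKM in young and 30.8 to 57.6 in aged libraries, without overlap. Replicate 1 was the highest library of each age for this sum and for Cfp, but the lowest library differed. Cd163, a scavenger receptor gene of tissue macrophages, fell from 7.62 ± 1.18 to 4.13 ± 1.04 FPKM (SD, n = 3 each, limma adjusted p = 0.0059). Of 3 neutrophil markers tested, 0 passed, but S100a9, named after its values were seen, passed as higher under the replicate block (limma adjusted p = 0.0294), with a pseudocount of 0.1 (0.0228) and without aged replicate 2 (0.0483). The summed level of the 10 listed was 2.29 to 4.39 FPKM in young libraries and 5.30, 2.09 and 40.4 in aged replicates 1, 2 and 3. Cfp was at its lowest in aged replicate 3, the library with most neutrophil marker RNA. The part of these cells in the fall of Cfp was not tested.

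**Figure D2:**
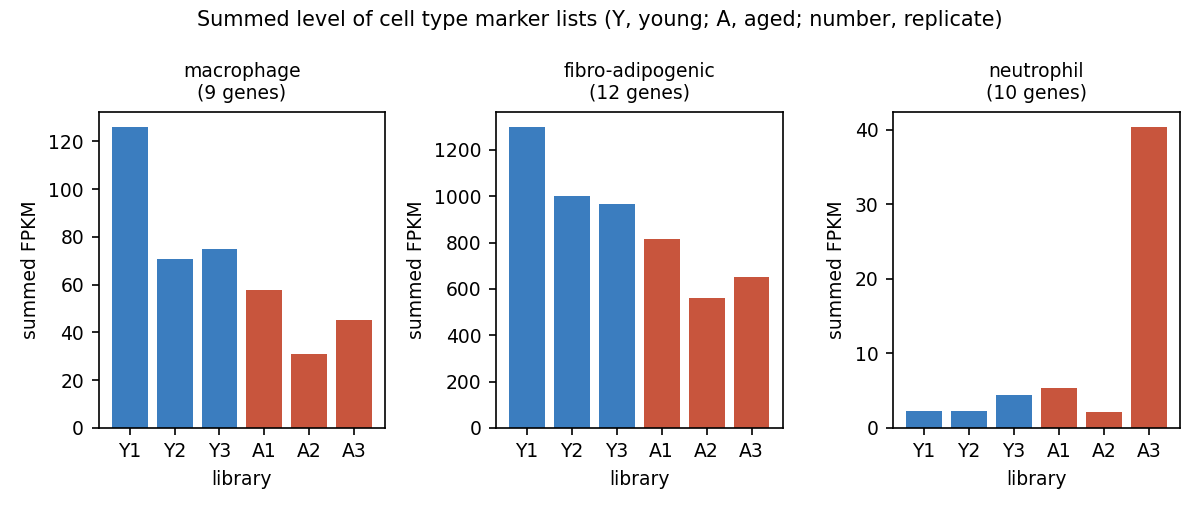
Summed FPKM of the listed marker genes of 3 cell types in each library (bars; blue young, red aged). Young replicate 1 has the highest sum of macrophage markers, 126 FPKM, and of fibro-adipogenic markers, 1301 FPKM, most of it from Gsn. All aged libraries are below the young ones for both lists. Aged replicate 3 stands out in neutrophil markers at 40.4 FPKM.

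C7 encodes a subunit of the membrane attack complex and joins C5b and C6 as the complex attaches to the membrane. The gene (ENSMUSG00000079105; chromosome 15, 4988762 to 5063773, minus strand) gave 3.91, 4.18 and 4.80 FPKM in the young libraries, against 6.68, 4.80 and 6.10 in the aged ones. The groups touched without overlapping: aged replicate 2, at 4.804 FPKM, was level with young replicate 3, at 4.796. The mean rose 1.36-fold, from 4.30 ± 0.453 to 5.86 ± 0.961 FPKM (SD, n = 3 each), a log2 change of 0.37 ± 0.12 (SE, limma adjusted p = 0.0306). The call was lost without young replicate 1 (limma adjusted p = 0.0958) or 2 (0.0859), without aged replicate 1 (0.0850) or 3 (0.0862), with no minimum FPKM (0.0559) and over all annotated genes (0.221). The lowest over its alternatives was 0.00782, without aged replicate 2. Of the other terminal genes, C6 and C9 were listed, with 6 and 1 fragments in the young and 44 and 9 in the aged libraries together, under the minimum for a test. C7 was thus the terminal gene with a tested value.

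Serping1 encodes the C1 inhibitor, a serpin that blocks C1r, C1s and the MASP proteases. The gene (ENSMUSG00000023224; chromosome 2, 84765387 to 84775444, minus strand) gave 50.1, 39.8 and 38.7 FPKM in the young libraries, where the aged libraries gave 40.4, 25.9 and 31.6. The groups overlapped through aged replicate 1, which lay between the young libraries. The means were 42.9 ± 6.25 and 32.7 ± 7.33 FPKM (SD, n = 3 each). The log2 change of −0.40 ± 0.16 (SE), with a 95% interval of −0.77 to −0.02, did not pass (limma adjusted p = 0.0706). It passed with the replicate numbers as a block (limma adjusted p = 0.00777), without aged replicate 1 (−0.56, 0.0141), with median-of-ratios scaling (0.0478) and with voom on recovered fragments (0.0438). The highest over its alternatives was 0.509. Under the block 2 of the 6 genes were called higher and 3 lower, against 27.6% and 26.0% of all genes tested.

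**Figure D3:**
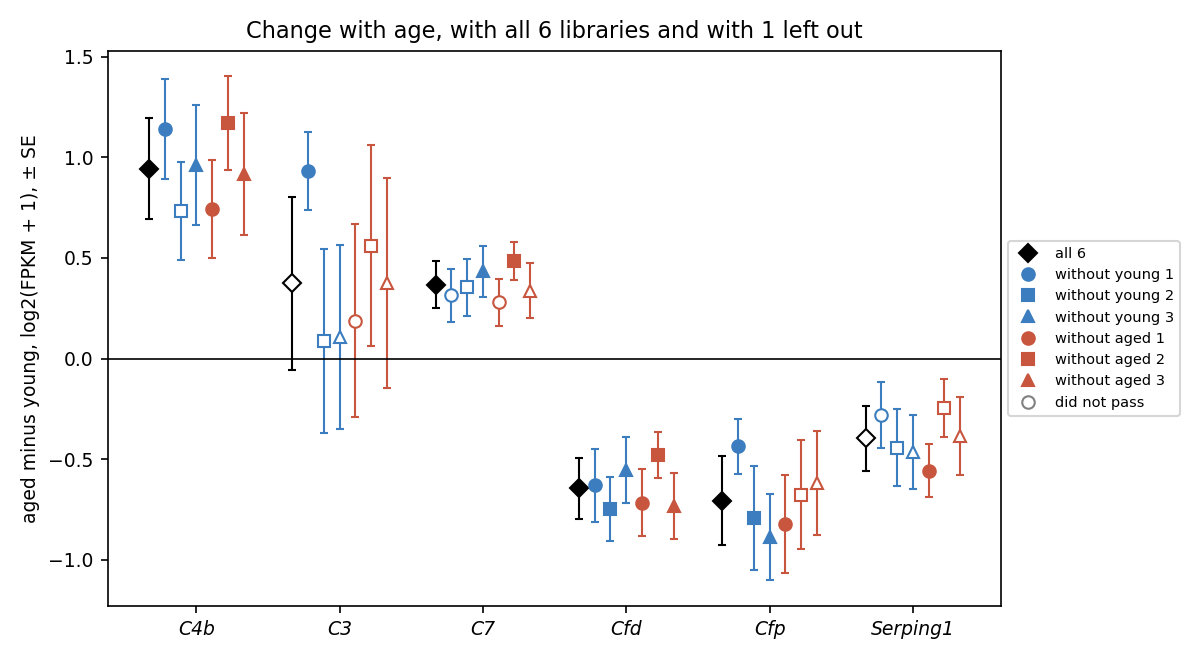
Log2 change with age of each gene (aged minus young, log2(FPKM + 1), points; whiskers are the SE of the fit) with all 6 libraries (black) and with each library left out; open symbols did not pass at an adjusted p of 0.05. Cfd passes throughout, C3 only without young replicate 1, at 0.93, and C7 in 2 of the 6 fits with a library left out.

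The libraries ranked alike for several of the genes. Aged replicate 1 was the highest aged library for 5 of the 6 genes, Cfd being the exception, and aged replicate 2 the lowest for 5, Cfp being the exception. Young replicate 1 was the highest young library for C4b, C3, Cfp and Serping1 and the lowest for C7. The spread within a group, as the highest over the lowest library, was between 1.23 for C7 in young and 3.30 for C3 in young muscle. C4b, C3, C7 and Serping1 had aged replicate 1 highest and aged replicate 2 lowest, whereas Cfd and Cfp, the genes that fell, each shared only one of these places. Summed fibro-adipogenic markers, mostly Gsn, also had aged replicate 1 highest and aged replicate 2 lowest. They stood at 815, 560 and 653 FPKM in aged replicates 1, 2 and 3. Summed macrophage markers had the same order, at 57.6, 30.8 and 45.3. The part of either cell type in this order was not tested.

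The wider complement list held 51 genes. Of these 30 were listed, 17 were tested and 13 lay under the minimum of 1 FPKM. Among the 17, 3 rose and 6 fell, against 27.3% and 24.5% of all genes tested, with a median log2 change of −0.37 against 0.02 over all genes tested. Without the 6 genes, 1 of the other 11 rose and 4 fell. With the replicate block 10 of the 17 fell (26.0% of all genes tested did), and 10 fell without aged replicate 1 (23.8%), while without young replicate 2 only 1 rose (20.2%).

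**Figure D4:**
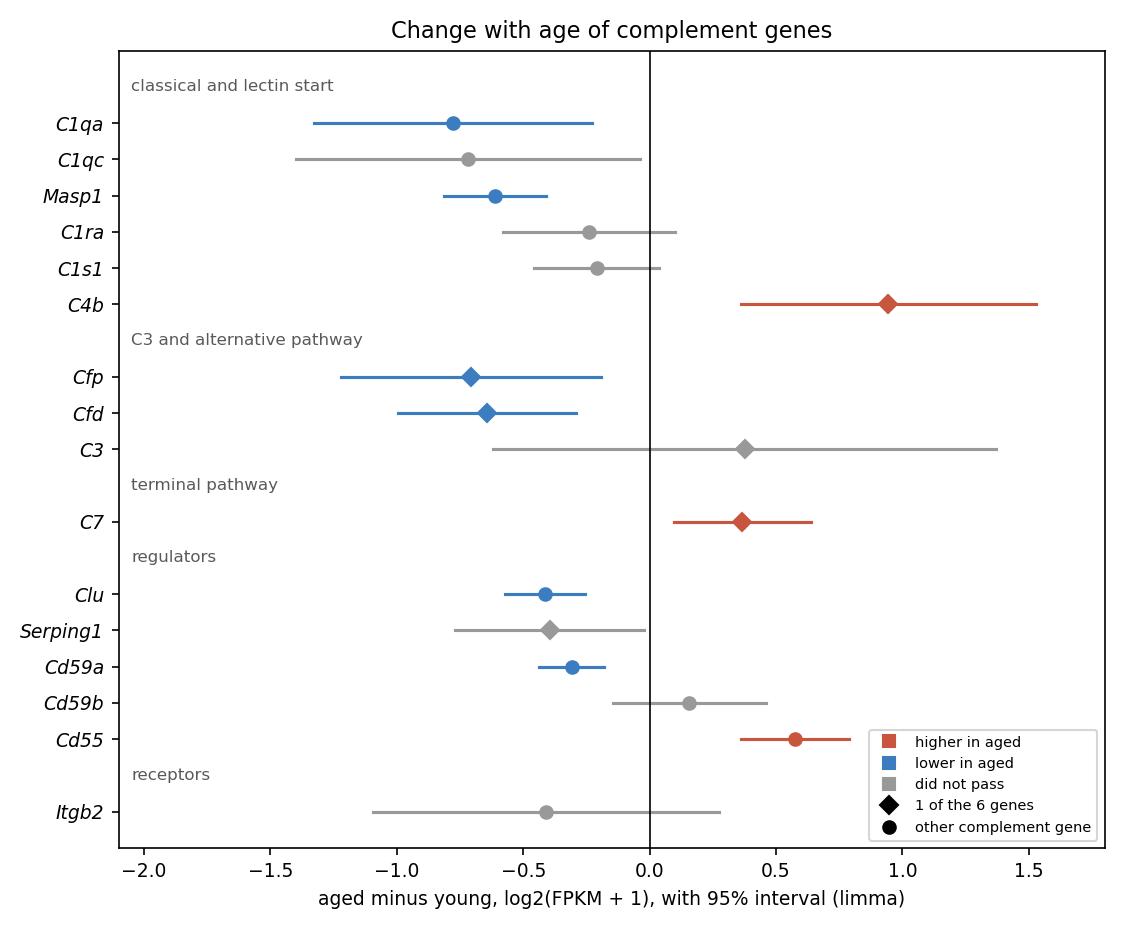
Log2 change with age (aged minus young, log2(FPKM + 1)) of the complement genes tested and reported here, grouped by role; symbols give the estimate, lines the 95% interval from limma, colours the call, and diamonds the 6 genes described here. The 3 genes called higher are C4b, C7 and Cd55, and most of the others lie to the left of 0.

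At the start of the cascade C4b was the gene that rose. C1qa, a chain of the antibody-binding C1q, gave 21.1, 12.2 and 14.1 FPKM in the young libraries and 11.9, 6.37 and 8.19 in the aged ones (log2 change −0.78 ± 0.24 SE, limma adjusted p = 0.0268). C1qa did not pass when young replicate 1 (0.0736) was left out, nor when aged replicate 2 (0.0792) or 3 (0.0739) was. Masp1, a protease gene of the lectin route, fell from 1.64 ± 0.164 to 0.729 ± 0.0865 FPKM (SD, n = 3 each, limma adjusted p = 0.00126). C1ra and C1s1, the proteases of C1, had log2 changes of −0.24 and −0.21, which did not pass (limma adjusted p = 0.202 and 0.133). C2, which pairs with C4 in the enzyme that cuts C3, lay under the minimum, between 0.541 and 0.997 FPKM. Cfb, which encodes the factor B that factor D cuts, was almost absent, with 8 fragments in the 3 young and 42 in the 3 aged libraries.

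Among the regulators, the membrane-bound ones moved in both directions. Cd55, which dissolves the enzymes that cut C3 on a cell's own surface, rose from 15.0 ± 1.18 to 22.8 ± 2.55 FPKM (SD, n = 3 each, log2 change 0.58 ± 0.09 SE, limma adjusted p = 0.00207). Cd59a, which blocks the membrane attack complex, fell from 28.9 ± 0.748 to 23.2 ± 0.626 FPKM (limma adjusted p = 0.00334). Clu, the clusterin gene, whose product binds the terminal complex in fluid, fell from 52.2 ± 4.11 to 38.8 ± 0.981 FPKM (limma adjusted p = 0.00242). The calls of Masp1, Cd55, Cd59a and Clu held in each fit with 1 library left out. C1qc, another C1q chain, and Itgb2, the beta chain of complement receptors 3 and 4, did not pass (limma adjusted p = 0.0719 and 0.275) but did under the replicate block (limma adjusted p = 0.00151 and 0.0445). Of the receptors, Itgb2 alone was tested, and the receptors for the C3a and C5a fragments, C3ar1 and C5ar1, were under the minimum, with 600 and 577 fragments in young and 283 and 317 in aged libraries.

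The order of the 6 genes by level depends on the transcript length behind the FPKM. As deposited, C3 was the highest gene on average in young and in aged muscle, followed by Serping1 and Cfd. In young muscle C3 was above Serping1 in 1 of 3 libraries only, young replicate 1, and without it the order of the pair turned. Below Cfd the young order was Cfp, C7 and C4b, where C7 was above C4b in 2 of 3 libraries, and the aged order was C4b, C7 and Cfp. Neighbours below Cfd overlapped in aged muscle, but C4b was above C7 and C7 above Cfp in each of the 3 aged libraries.

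For C3, C4b, Cfp and Serping1 the transcript length recovered from the FPKM was within 1 base of the mean over the gene's annotated transcripts. For C7 and Cfd it was 2709 and 923 bases, close to the longest transcripts of 2676 and 922. For C3 this length is 1667 bases, the mean of 4 transcripts, where the longest has 5136. For C4b it is 2297 bases against 5379. The deposited levels of C3 and C4b are therefore 3.08 and 2.34 times those per longest transcript, and those of Cfp 1.61 times and Serping1 1.22 times. Per longest transcript Serping1 averaged 35.0 ± 5.11 FPKM at 3 months and 26.7 ± 5.99 at 18 months (SD, n = 3 each), and C3 at 17.2 ± 12.8 and 19.5 ± 5.11. Serping1 was then above C3 in 3 of 3 libraries of each age, and C4b was at 1.49 ± 0.524 and 3.26 ± 1.06. Ratios between ages within a gene do not depend on this length. Which transcripts the muscle makes was not analysed here.

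**Figure D5:**
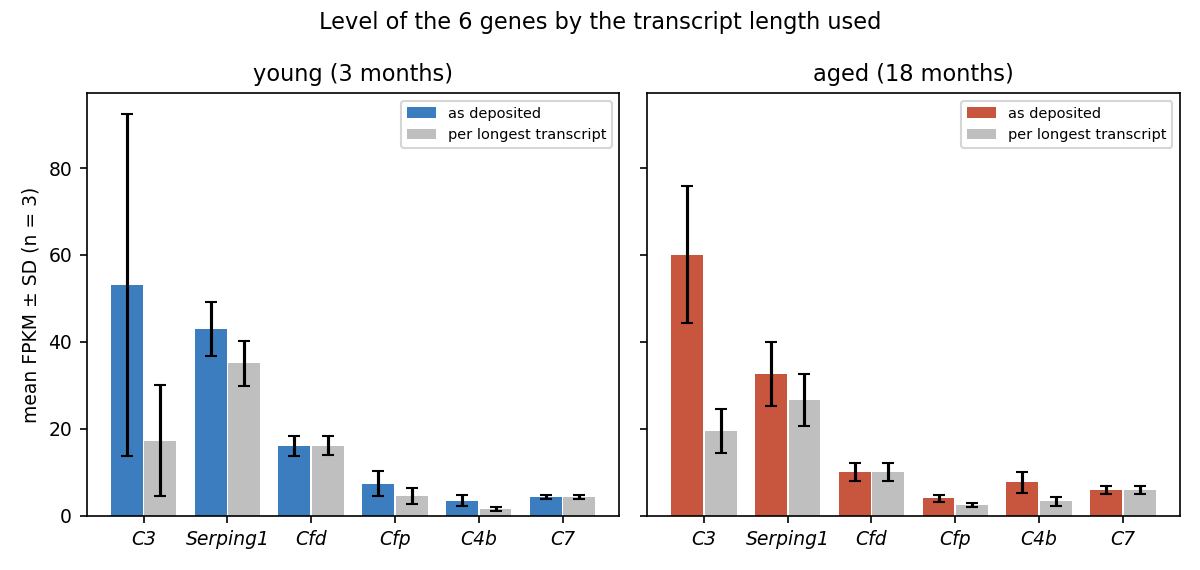
Mean FPKM (bars; whiskers are the SD of 3 libraries) of the 6 genes in young and aged muscle, as deposited (coloured) and recomputed per longest annotated transcript (grey). C3 is the highest gene as deposited, while per longest transcript Serping1 is, with 35.0 FPKM at 3 months and 26.7 at 18 months.

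The genes most like each of the 6 across the 6 libraries, by Pearson's r of log2(FPKM + 1) among 7170 tested genes, are given as a description only, since the difference between ages and shared libraries both enter r. For C7 the closest was Adipoq (r = 0.996), followed by the kinase gene Jak1 (0.991) and the deubiquitinase gene Usp9x (0.987). For Cfd they were Tmem198b, Igf1 (an insulin-like growth factor gene, 0.994) and Rnd3, and for Serping1 Rras, C1qtnf1 and Il17rd, all with r over 0.95. Among the closest to C4b were Heatr6 and Rpp40, and among the closest to Cfp were Ptcd2 (0.989) and Sult5a1. C3 had few like it, with 5 genes over an r of 0.95, of which Mesdc2 (0.986), Stx7 and Gdap10 came closest, whereas the other 5 genes had between 49 and 96.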

How the data were processed

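RNA-seq libraries of tibialis anterior muscle, 3 young and 3 aged, were analysed from the FPKM values that the authors deposited. The submitters' processing notes name TopHat, DESeq2, bcl2fastq 2.19 and the build mm9, but the deposited positions follow GRCm38 (88.7% of gene starts equal GENCODE M21). The sources used here do not say how the 11239 genes were chosen, so shares of called genes describe this subset. An empty line in every deposited table was skipped.

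Whole fragment counts were recovered from the FPKM: with a total per library and a whole length per gene, 100.0% of the values of detected genes came within 0.001 of a whole number. For 77.9% of 8961 genes with several transcripts, that length was within 1 base of the mean annotated transcript length. Fragments are not independent molecules, so depth covers counting error only; 3 fragments of a 1 kb transcript correspond to 0.0294 to 0.0417 FPKM.

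The 7690 genes averaging 1 FPKM or more were compared as log2(FPKM + 1), without further scaling, with limma 3.58.1 in R 4.3.3 (empirical Bayes with a trend, two-sided, Benjamini-Hochberg over all genes tested). Fold changes on this scale understate those of low genes. The recovery and the fit were tested on simulated data. After subtraction of group means, libraries of the same replicate number correlated at 0.177, 0.182 and 0.136, and others at −0.192 to 0.0358. On this ground alone the numbers were taken as a possible pairing, which the labels do not state. The main fit does not use it, and the fit with the number as a block is an alternative. As the pairing was read from these same data, a smaller p-value under the block is not separate evidence. Other alternatives were the pseudocount, the minimum, 3 scalings, robust estimation, voom on the recovered fragments with trimmed-mean factors, adjustment over all 55450 annotated genes, and leaving out each library.

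The members, the wider complement list and the marker lists were chosen with earlier results of these data known, so no p-value over a list is given. The rule names all 6 genes, any listed complement gene, called markers, and the 3 genes most correlated with each of the 6, of which a few are not reported here; Lyz2, Ckm and the levels of uncalled receptor genes were named after their values were seen. Of 8 hepatocyte markers 1, Ahsg, was listed, at 0.0890 FPKM or less. Of 7 endothelial markers tested 1 rose and 5 fell, and of 8 muscle fibre markers 2 rose and 3 fell. Of 3 neutrophil markers 0 passed with the settings above. Among all genes tested, 27.3% rose and 24.5% fell.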

Additional observations from a re-analysis of the deposited data

How the results depend on the processing

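Of the 17 alternatives run for each gene, none turned the direction of any of the 6 changes. Adjusted over all annotated genes, where unlisted genes count as not passing, the log2 changes of C4b (0.94), C7 (0.37), Cfd (−0.64) and Cfp (−0.71) no longer passed. Without the minimum of 1 FPKM, C7 (0.37) and Cfp (−0.71) did not pass, nor did Cfp (−0.71) with robust estimation. Serping1 passed with median-of-ratios scaling (−0.42), voom (−0.43) and the replicate block (−0.40), and the block changed no other call among the 6 genes. With each library left out in turn, the changes lay between 0.73 and 1.17 for C4b, 0.087 and 0.93 for C3, 0.28 and 0.48 for C7, −0.75 and −0.48 for Cfd, −0.89 and −0.44 for Cfp, and −0.56 and −0.25 for Serping1. The number of the 6 genes called higher (2) became 1 without the minimum, 0 over all annotated genes and 0 to 2 with a library left out. The number called lower (2) became 1 without the minimum or with robust estimation, 3 with the block, 0 over all annotated genes and 1 to 3 with a library left out. Of the wider list, 3 higher became 1 over all annotated genes and 1 to 3 with a library left out, and 6 lower became 3 over all annotated genes, 10 with the replicate block and 4 to 10 with a library left out. With adjustment over all genes the loss follows from the number of tests, and for the other settings the cause was not tested. The order of levels kept 4 or 5 of 5 neighbouring pairs with a young library left out and 5 of 5 with an aged one; per longest transcript, an alternative chosen after seeing the data, it kept 4 in young and 3 in aged muscle. At 3 libraries a group and the spread of C3 between 29.9 and 98.6 FPKM in young muscle, the spread between libraries and not depth limits its comparison, since it had at least 3585 fragments in each.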
